A study of Homo sapiens with 12 samples.

Results

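The 10 genes described here belong to a set of Hippo pathway brakes and YAP negative feedback genes: LATS1, LATS2, NF2, AMOT, AMOTL1, AMOTL2, PTPN14, AJUBA, WWC1 and WWC2. They were taken by symbol from 27064 genes in each of 2 count tables, and all 10 were found in both. RNA was sequenced from H226 (NCI-H226), a human mesothelioma line, and ACHN, a human kidney cancer line, both described by the submitters as deficient in NF2. The treatment was an overnight exposure to SWTX-143 at 100 nM, with DMSO as the control. SWTX-143 blocks TEAD transcription factors irreversibly. The 4 groups were H226 with SWTX-143, H226 with DMSO, ACHN with SWTX-143 and ACHN with DMSO, each with 3 libraries. Whether libraries of one group stem from independent cultures is not stated, so p-values measure the spread among samples that may be technical repeats.

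In the Hippo pathway, a kinase cascade ends in LATS1 and LATS2, which phosphorylate the coactivators YAP and TAZ and so keep them out of the nucleus. Merlin (the NF2 protein) and the WWC proteins, of which WWC1 is also called KIBRA, promote LATS activity at the cell cortex. The angiomotins (AMOT, AMOTL1 and AMOTL2) and the phosphatase-like protein PTPN14 bind YAP directly and hold it in the cytoplasm. AJUBA is in the set but works the other way, as a LIM protein that binds LATS kinases at junctions and lowers their activity. In the nucleus YAP and TAZ act through TEAD factors, and LATS2 and AMOTL2 are known TEAD target genes, which closes a negative feedback loop.

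The promoters that contain the core of the TEAD binding motif are shown because they can be set beside the response of each gene. The letters searched were GGAATG on both strands, so that CATTCC in a printed sequence is a match on the other strand. Each window runs from 250 bases before to 50 bases after a RefSeq transcript start in GRCh38.p14 and is printed along the strand of its gene, with matches in capitals. The 10 genes had 14 such windows. A match was found in 5 of the 14 windows (35.7%), against 14.0% of all 35116 RefSeq promoter windows. Counted by gene, 5 of 10 held a match in at least 1 window, against 16.7% of 27305 genes.
AMOTL2 (the downstream of its 2 starts), chr3:134374398-134374697, minus strand: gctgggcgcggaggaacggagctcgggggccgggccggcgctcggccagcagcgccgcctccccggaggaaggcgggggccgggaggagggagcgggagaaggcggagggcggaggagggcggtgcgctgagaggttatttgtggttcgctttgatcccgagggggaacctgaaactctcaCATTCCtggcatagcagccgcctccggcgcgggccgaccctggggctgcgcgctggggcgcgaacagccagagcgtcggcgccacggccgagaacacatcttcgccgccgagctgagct
LATS2, chr13:21061537-21061836, minus strand: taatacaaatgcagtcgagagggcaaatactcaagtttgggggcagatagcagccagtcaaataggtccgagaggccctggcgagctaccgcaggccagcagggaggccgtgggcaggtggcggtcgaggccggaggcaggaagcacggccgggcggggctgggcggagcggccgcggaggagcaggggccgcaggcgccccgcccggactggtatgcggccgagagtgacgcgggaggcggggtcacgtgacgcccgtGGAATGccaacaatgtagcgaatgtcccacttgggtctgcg
WWC2, chr4:183099007-183099306, plus strand: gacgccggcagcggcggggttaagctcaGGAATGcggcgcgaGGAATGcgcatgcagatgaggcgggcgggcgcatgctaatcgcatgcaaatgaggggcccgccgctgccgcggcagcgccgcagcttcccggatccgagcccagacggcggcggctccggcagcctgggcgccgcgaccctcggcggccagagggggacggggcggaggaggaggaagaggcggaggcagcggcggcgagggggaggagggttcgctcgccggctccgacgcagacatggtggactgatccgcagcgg
AJUBA (the downstream of its 2 starts), chr14:22976793-22977092, minus strand: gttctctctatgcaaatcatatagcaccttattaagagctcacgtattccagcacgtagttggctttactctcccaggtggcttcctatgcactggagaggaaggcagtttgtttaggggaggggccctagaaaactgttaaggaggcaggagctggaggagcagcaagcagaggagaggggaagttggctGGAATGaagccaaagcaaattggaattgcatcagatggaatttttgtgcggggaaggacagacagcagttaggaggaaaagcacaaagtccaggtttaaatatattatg
PTPN14, chr1:214551553-214551852, minus strand: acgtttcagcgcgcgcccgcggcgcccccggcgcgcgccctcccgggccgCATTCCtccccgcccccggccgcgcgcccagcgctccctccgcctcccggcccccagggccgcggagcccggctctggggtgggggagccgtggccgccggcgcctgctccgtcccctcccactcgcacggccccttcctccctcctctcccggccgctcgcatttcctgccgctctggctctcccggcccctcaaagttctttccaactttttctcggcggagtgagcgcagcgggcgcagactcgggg

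With the annotated start as position 0, the match lay at −69 to −64 in AMOTL2, at −59 to −54 in AJUBA, at −200 to −195 in PTPN14 and at 9 to 14 in LATS2. WWC2 held 2 matches, at −222 to −217 and at −208 to −203, and 1.37% of all windows held 2 or more. These positions hold for the RefSeq starts. In the GENCODE annotation, 0 of 2 LATS2 and 0 of 10 WWC2 transcripts held the bases just after that start. AMOTL2, AJUBA and PTPN14 each had some that did. No match was found in the windows of LATS1, NF2, AMOT, AMOTL1 and WWC1, which says only that these letters are absent there. The AP-1 motif TGANTCA, which reads alike on both strands, was found in 1 of the 14 windows, upstream of LATS1, and in 7.71% of all windows. A match is a run of letters and not a measured binding site.

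**Figure D1:**
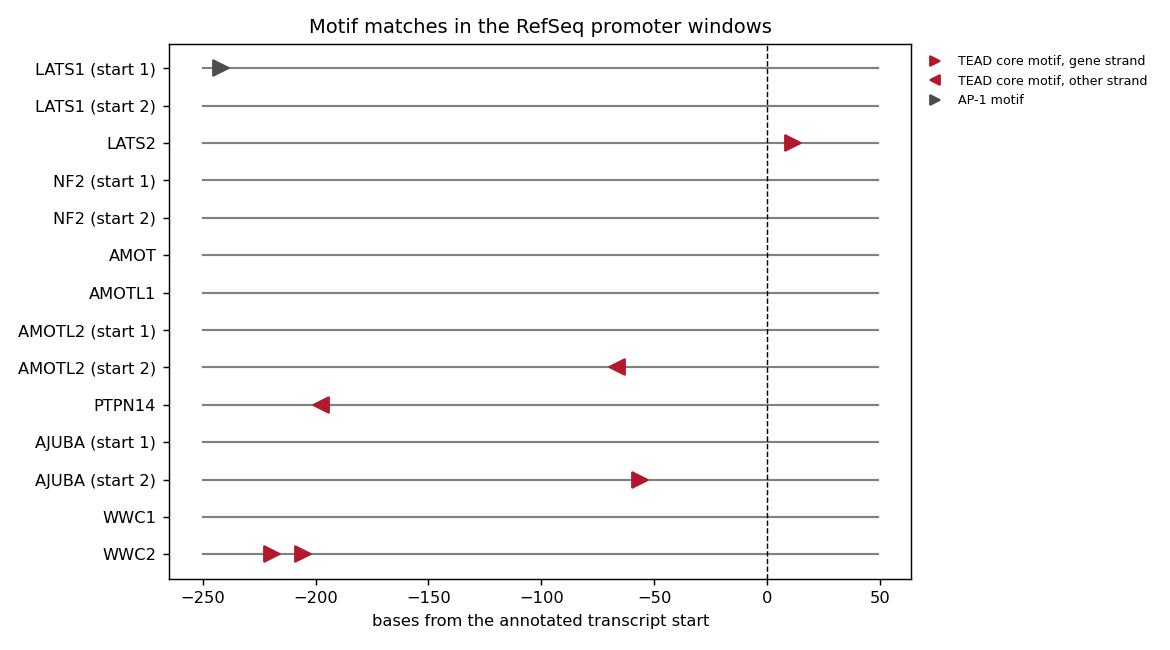
Position of motif matches in the 14 RefSeq promoter windows of the 10 genes. The horizontal axis is the distance in bases from the annotated transcript start (dashed line), each grey line is a window, red triangles are matches to the TEAD core motif pointing along their strand and the dark triangle is a match to the AP-1 motif. WWC2 holds 2 TEAD core matches and the match of LATS2 lies downstream of its RefSeq start.

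Depth and identity were even enough for these comparisons. Library totals ran from 9690980 to 11262663 counts, and no replicate pair differed by as little as sampling noise, with a chi-square of 1.36 to 3.42 per degree of freedom. Levels are in CPM, counts scaled to a common library size. The 8 mesothelial markers summed to 3900 to 4160 CPM with SWTX-143 and 3400 to 3550 CPM with DMSO in H226, and to 153 to 161 CPM with SWTX-143 and 186 to 188 CPM with DMSO in ACHN. The 7 kidney markers summed to 122 to 128 CPM with SWTX-143 and 133 to 139 CPM with DMSO in H226, and to 744 to 797 CPM with SWTX-143 and 725 to 755 CPM with DMSO in ACHN. The part of these marker differences in the results that follow was not tested. The mesothelial factor WT1 was at 0 in ACHN, and the leukocyte gene PTPRC was at 0 in both lines. The drug effect was visible in CTGF (CCN2), the most used readout of YAP and TEAD activity, which averaged 13.9 ± 1.22 CPM in SWTX-143-treated H226 cells and 79.9 ± 7.44 CPM in DMSO-treated ones (SD, n = 3 each). In ACHN it averaged 21.0 ± 2.06 CPM with SWTX-143 and 109 ± 1.49 CPM with DMSO. CYR61 was 2.66-fold lower with SWTX-143 in H226 and 2.43-fold lower in ACHN, and ANKRD1 was 4.25-fold and 2.61-fold lower (adjusted p at most 5.45e-15 for each).

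In H226, 5 of the 9 brake and feedback genes that could be tested fell with SWTX-143: AMOTL2, LATS2, WWC2, AJUBA and WWC1. AMOT rose, and LATS1, AMOTL1 and PTPN14 were not called. NF2 had too few counts to be tested. A call means an adjusted p under 0.05 in edgeR's quasi-likelihood test with Benjamini-Hochberg adjustment over all 13484 genes tested in that line, of which 40.7% were called in either direction, 21.6% lower and 19.0% higher. The median log2 fold change of the 9 was −0.29, against −0.0011 over all tested genes. In ACHN, 6 of 10 fell: the same 5 and NF2. There 17.8% of 13483 tested genes were called in either direction, 9.37% lower and 8.43% higher, and the median log2 fold change of the 10 was −0.40, against 0.0013 over all tested genes. By ranges alone, treated and control libraries did not overlap for 6 of the 9 genes in H226, 5 of them lower, against 48.4% of all tested genes (24.5% lower). In ACHN they did not overlap for 8 of 10, 7 of them lower, against 31.7% (13.8% lower). The 10 genes were chosen with earlier results of these data known. Their shares and medians beside those of all tested genes are therefore a description and not a test. RNA was taken from whole cultures, so fewer cells with a transcript and less of it per cell cannot be told apart.

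**Figure D2:**
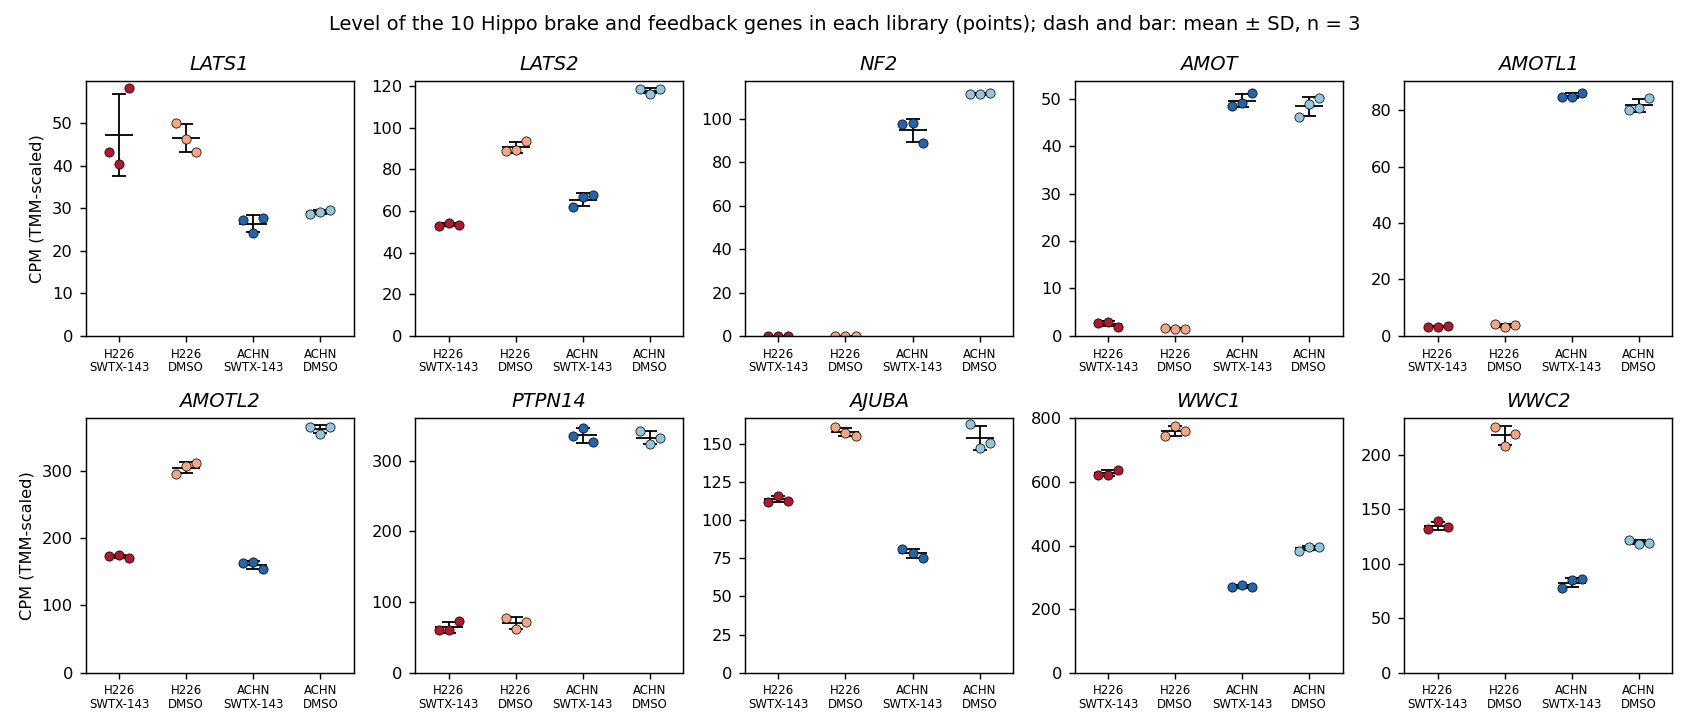
CPM of each of the 10 genes in every library (vertical axis, linear and starting at 0, different for each gene), by line and treatment. Points are single libraries, and the dash and bar are the mean and SD of 3. AMOTL2, LATS2, AJUBA, WWC1 and WWC2 are lower with SWTX-143 than with DMSO in every library of both lines, while NF2, AMOT and AMOTL1 are near 0 in H226.

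The LATS kinases responded unequally. LATS2 had 52.7, 54.1 and 53.2 CPM in H226 libraries with SWTX-143, against 89.0, 89.1 and 93.4 CPM with DMSO. ACHN libraries had 61.7, 66.9 and 67.5 CPM with SWTX-143, against 119, 116 and 118 CPM with DMSO. Treated and control libraries were far apart in both lines, and LATS2 fell 1.71-fold in H226 (log2 fold change −0.77 ± 0.05 SE, adjusted p = 1.44e-17) and 1.82-fold in ACHN (−0.87 ± 0.05, adjusted p = 1.84e-20). LATS1 had 43.2, 40.5 and 58.3 CPM in H226 libraries with SWTX-143, against 50.1, 46.3 and 43.4 CPM with DMSO. These groups overlapped, and the third treated library was the highest of all 6. The log2 fold change of LATS1 was 0.01 in H226, with a 95% interval of −0.44 to 0.47 (adjusted p = 0.966). In ACHN it had 27.3, 24.2 and 27.8 CPM with SWTX-143, against 28.8, 29.2 and 29.5 CPM with DMSO, a log2 fold change of −0.16 ± 0.08 that was not called (adjusted p = 0.165).

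The third H226 library with SWTX-143 stood somewhat apart. Its counts differed from those of the other 2 treated libraries by a chi-square of 3.12 and 3.42 per degree of freedom, against 1.44 between those 2. Transcripts longer than 8000 bases had a median deviation from the group mean of 0.08 (log2) in that library, against −0.02 and −0.06 in the other 2. Such deviations were not confined to it, being 0.05, −0.06 and 0.01 in the H226 DMSO libraries. Without the third treated library, LATS1 was called lower in H226 (log2 fold change −0.17, adjusted p = 0.0488) and so was PTPN14 (−0.24, adjusted p = 0.00157), the gene with the longest transcript of the 10 at 12985 bases. The 5 falls named above were called with and without it.

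NF2, which encodes merlin, separated the lines. H226 libraries held 0, 0 and 1 counts with SWTX-143, and 0 in each with DMSO. A pooled count of 3 in the H226 DMSO libraries would have been 0.0994 CPM. ACHN libraries had 97.7, 98.1 and 88.8 CPM with SWTX-143, against 111, 111 and 112 CPM with DMSO. All treated ACHN libraries were below all controls, a log2 fold change of −0.25 ± 0.05 (adjusted p = 5.53e-05). Levels of RNA do not show whether the ACHN transcript encodes working merlin.

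Among the angiomotins only AMOTL2 was called lower. It had 173, 175 and 171 CPM in H226 libraries with SWTX-143, against 296, 308 and 311 CPM with DMSO. ACHN libraries had 164, 164 and 154 CPM with SWTX-143, against 366, 356 and 366 CPM with DMSO. Treated and control libraries were far apart, and AMOTL2 fell 1.77-fold in H226 (log2 fold change −0.83 ± 0.04, adjusted p = 2.07e-23) and 2.29-fold in ACHN (−1.19 ± 0.04, adjusted p = 4.13e-31). Its ACHN fold change was the 27th lowest of all tested genes there, and its H226 fold change the 190th lowest.

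AMOT, the founding angiomotin, was scarce in H226, with 28, 31 and 21 counts in libraries with SWTX-143, against 18, 16 and 14 counts with DMSO. The groups did not overlap and it was called higher (2.54 ± 0.498 against 1.59 ± 0.0969 CPM, log2 fold change 0.66 ± 0.27, adjusted p = 0.0414). That call was lost with DESeq2 (adjusted p = 0.179), with no filter on low counts (0.0571) and without any single H226 library other than treated replicate 3. In ACHN, where AMOT had 48.5, 49.2 and 51.3 CPM with SWTX-143 against 46.27, 49 and 50.18 CPM with DMSO, the groups overlapped (log2 fold change 0.02, 95% interval −0.10 to 0.14). AMOTL1 had 3.26, 3.26 and 3.37 CPM in treated H226 libraries, against 4.16, 3.05 and 3.86 CPM with DMSO (log2 fold change −0.17, 95% interval −0.57 to 0.24). In ACHN AMOTL1 had 84.7, 84.7 and 86.2 CPM with SWTX-143, against 79.9, 80.8 and 84.3 CPM with DMSO (0.04, 95% interval −0.05 to 0.14). Neither AMOTL1 difference was called.

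PTPN14 was not called in either line. It had 60.1, 59.6 and 72.8 CPM in H226 libraries with SWTX-143, against 77.9, 61.2 and 71.7 CPM with DMSO, and the groups overlapped (log2 fold change −0.14, 95% interval −0.43 to 0.15). In ACHN it had 335, 346 and 326 CPM with SWTX-143, against 341, 323 and 333 CPM with DMSO. The ACHN interval was narrow, at −0.08 to 0.07 around a log2 fold change of −0.0025. In H226 the PTPN14 call depended on single libraries: besides the case given above, it was called lower without DMSO replicate 2 (−0.23, adjusted p = 0.0102).

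AJUBA fell in both lines. It had 112, 116 and 113 CPM in H226 libraries with SWTX-143, against 161, 158 and 155 CPM with DMSO (log2 fold change −0.48 ± 0.05, adjusted p = 7.77e-13). ACHN libraries had 81.2, 78.3 and 75.3 CPM with SWTX-143, against 163, 148 and 151 CPM with DMSO (−0.99 ± 0.05, adjusted p = 1.07e-23). Every treated library was below every control. The fall was 1.40-fold in H226 and 1.99-fold in ACHN, where it was the 52nd lowest fold change of all tested genes.

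The WWC genes fell too. WWC2 had 132, 139 and 134 CPM in H226 libraries with SWTX-143, against 225.8, 208.6 and 219.7 CPM with DMSO (log2 fold change −0.70 ± 0.05, adjusted p = 2.91e-19). In ACHN it had 77.7, 84.8 and 85.7 CPM with SWTX-143, against 122, 118 and 120 CPM with DMSO (−0.55 ± 0.05, adjusted p = 1.11e-13). WWC1 had 623, 623 and 639 CPM in H226 libraries with SWTX-143, against 744, 776.3 and 761.9 CPM with DMSO (−0.28 ± 0.04, adjusted p = 1.49e-08). ACHN libraries had 270, 275 and 268 CPM with SWTX-143, against 384, 394 and 396 CPM with DMSO (−0.55 ± 0.04, adjusted p = 5.69e-18). Groups did not overlap for either gene in either line. WWC2 shares 2581 exonic bases with CLDN22 on the other strand, and without a stated strand setting their reads cannot be told apart. CLDN22 itself held 142 pooled counts with SWTX-143 and 248 with DMSO in H226, against which WWC2 held 4257 and 6577.

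**Figure D3:**
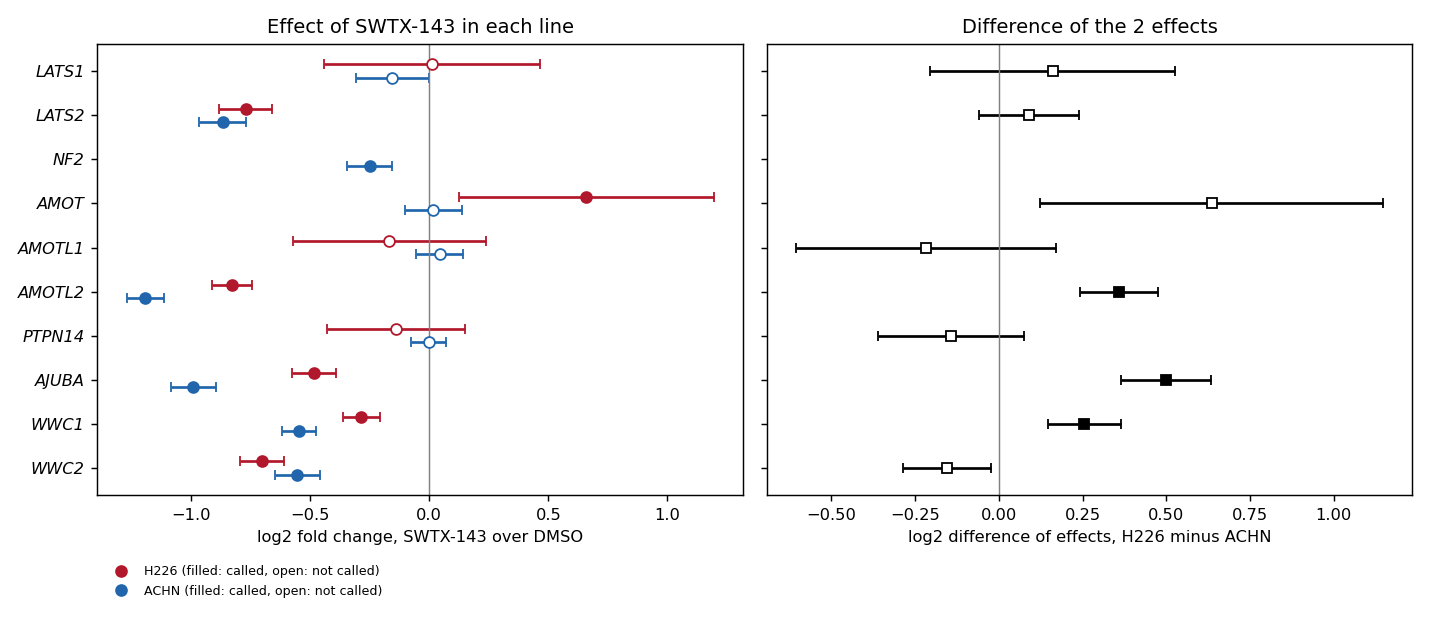
Left, log2 fold change of SWTX-143 over DMSO for each gene in H226 (red) and ACHN (blue); right, the difference of these effects, H226 minus ACHN, on a log2 scale. Bars are 95% intervals, filled symbols are called and open ones are not. NF2 is shown for ACHN only. AMOTL2, AJUBA and WWC1 fell more in ACHN than in H226.

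Whether the response differed between lines was tested by subtracting the effect in ACHN from that in H226, with the 12 libraries fitted together. Of the 10 genes, 3 were called, against 15.6% of 14664 tested genes (5.89% higher and 9.70% lower). As the 10 were chosen with earlier results of these data known, this count is a description. NF2 is counted among the 10, but it passed the filter on low counts through ACHN alone. Its H226 libraries held 1 pooled count with SWTX-143 and 0 with DMSO. The NF2 difference (2.13 ± 1.66 SE, not called) therefore measures no response in H226. AJUBA fell more in ACHN, by 0.50 ± 0.07 on the log2 scale (adjusted p = 9.13e-09), as did AMOTL2, by 0.36 ± 0.06 (adjusted p = 1.83e-06), and WWC1, by 0.26 ± 0.05 (adjusted p = 0.000238). LATS2 was not called, with a difference of 0.09 and a 95% interval of −0.06 to 0.24. WWC2 had the opposite sign, −0.15 (95% interval −0.29 to −0.02), and did not pass adjustment (adjusted p = 0.109). AMOT had a difference of 0.64 ± 0.26 (adjusted p = 0.0833), and without the third treated H226 library it was 0.83 (adjusted p = 0.0291). Without ACHN treated replicate 1, WWC2 was called (−0.20, adjusted p = 0.0473).

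Levels without the inhibitor were compared between lines. Under DMSO, 9 of the 10 genes were called between H226 and ACHN, 6 lower and 3 higher in H226, where 84.4% of all tested genes were called (42.2% lower and 42.2% higher). Ranges did not overlap for the same 9 genes, against 85.0% of all tested genes (42.5% lower). These shares are near that background. Each line came as its own table, so a difference between lines and one in handling cannot be told apart. NF2, which passed the filter on low counts through ACHN alone, was at least 1120-fold lower in H226, taking the pooled floor given above. AMOT (log2 difference, H226 minus ACHN, −4.92 ± 0.13), AMOTL1 (−4.47 ± 0.09) and PTPN14 (−2.24 ± 0.07) were also lower in H226, and LATS2 (−0.38 ± 0.05) and AMOTL2 (−0.25 ± 0.04) slightly so. WWC1 (0.96 ± 0.04), WWC2 (0.86 ± 0.05) and LATS1 (0.68 ± 0.12) were higher in H226. AJUBA was alike, with 158 ± 2.77 CPM in H226 and 154 ± 8.02 CPM in ACHN, a log2 difference of 0.04 (95% interval −0.05 to 0.13). Scaling by library size alone moved the median of all genes to −0.16 in this comparison and turned AJUBA to −0.12 (adjusted p = 0.00956).

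To compare genes with each other, CPM were divided by transcript length. With DMSO, H226 held WWC1 at 107 ± 2.27, AMOTL2 at 68.0 ± 1.79, AJUBA at 37.1 ± 0.651, WWC2 at 24.7 ± 0.988 and LATS2 at 16.4 ± 0.459 CPM per kilobase. LATS1 at 6.20 ± 0.444 and PTPN14 at 5.41 ± 0.650 CPM per kilobase followed, with overlapping libraries, and AMOTL1 (0.411) and AMOT (0.231) were far below them. In ACHN with DMSO the order began with AMOTL2 at 80.8 ± 1.34 and WWC1 at 54.9 ± 0.894, then AJUBA at 36.1 ± 1.88 and PTPN14 at 25.6 ± 0.697 CPM per kilobase. LATS2 (21.4), NF2 (18.5), WWC2 (13.6), AMOTL1 (9.10), AMOT (7.04) and LATS1 (3.88) completed it. With SWTX-143, WWC1 led in ACHN at 38.0 ± 0.471 CPM per kilobase, against 35.8 ± 1.33 for AMOTL2. The order depended on the transcript chosen. With the shortest annotated transcript of each gene, WWC2 in H226 with DMSO was at 179 CPM per kilobase and second to WWC1, and PTPN14 (18.3) and LATS1 (18.1) stood above LATS2 (16.4). In ACHN with SWTX-143, PTPN14 (87.3) then stood above WWC1 (76.1).

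Summed per length, each family was lower with SWTX-143. The angiomotins together had 39.3 ± 0.550 CPM per kilobase with SWTX-143 and 68.6 ± 1.74 with DMSO in H226, and 52.5 ± 1.04 with SWTX-143 and 97.0 ± 1.46 with DMSO in ACHN (SD, n = 3). AMOTL2 made up 98.1% of the treated and 99.1% of the control sum in H226. In ACHN its share was 68.1% ± 1.21 with SWTX-143 and 83.3% ± 0.503 with DMSO. The LATS sum was 16.0 ± 1.25 with SWTX-143 and 22.6 ± 0.255 with DMSO in H226, and 15.4 ± 0.565 with SWTX-143 and 25.3 ± 0.222 with DMSO in ACHN. LATS2 made up 60.8% ± 4.77 of it with SWTX-143 and 72.6% ± 1.90 with DMSO in H226, and 77.1% ± 1.78 with SWTX-143 and 84.6% ± 0.238 with DMSO in ACHN. The WWC sum, of WWC1 and WWC2 alone, was 103 ± 1.25 with SWTX-143 and 131 ± 1.33 with DMSO in H226, and 47.4 ± 0.734 with SWTX-143 and 68.5 ± 0.690 with DMSO in ACHN. WWC3, also of this family, is left out of the sum and of the WWC2 shares. It was called lower in H226 (log2 fold change −0.37 ± 0.07 SE). In ACHN it was also called lower (−0.18 ± 0.06 SE), though treated and control libraries overlapped there. With the shortest transcripts, an alternative chosen after seeing the data, LATS2 made up 34.8% ± 4.44 of the LATS sum with SWTX-143 and 47.5% ± 2.40 with DMSO in H226, and that sum was 28.1 ± 3.70 with SWTX-143 and 34.6 ± 0.946 with DMSO. WWC2 then made up 38.6% ± 0.814 of the WWC sum with SWTX-143 and 45.6% ± 1.52 with DMSO in H226. Every family sum stayed lower with SWTX-143 in both lines under that choice. Of the 12 sums and shares, the WWC2 share in ACHN overlapped between groups (exact permutation test, two-sided p = 1.00). The other 11 did not, and each had p = 0.10 in this exact permutation test (0.109 adjusted over the 12), the smallest that 3 libraries against 3 allow.

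**Figure D4:**
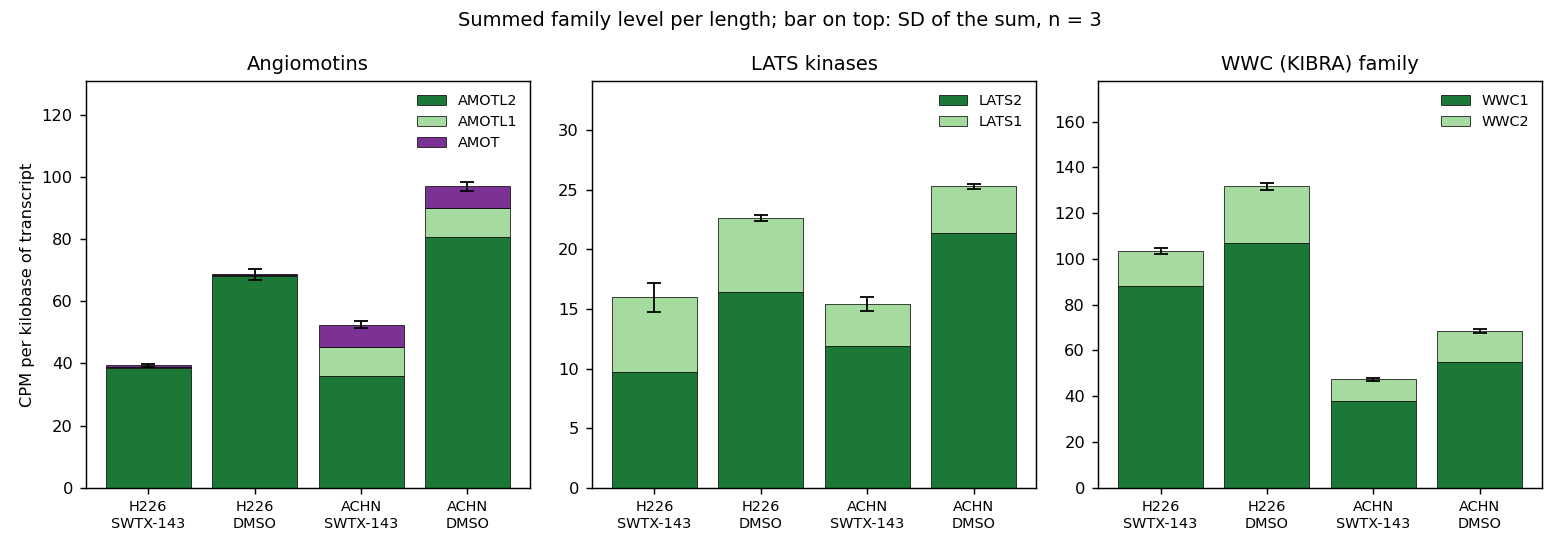
Summed CPM per kilobase of transcript (vertical axis, from 0) of the angiomotin, LATS and WWC families by line and treatment. The WWC bars hold WWC1 and WWC2 and leave out WWC3. Coloured segments are the means of single genes over 3 libraries and the error bar is the SD of the sum. In H226 the angiomotin bar is almost entirely AMOTL2, and the LATS2 segment is smaller with SWTX-143 than with DMSO in both lines.

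Of 80 other pathway genes listed by role, 72 could be tested in H226, where 19 were called lower and 13 higher with a median log2 fold change of −0.03. In ACHN 73 could be tested, of which 15 were called lower and 3 higher with a median of −0.0086. The share called was near the 40.7% of all tested genes in H226 and somewhat above the 17.8% in ACHN. Of the brakes and feedback genes, 6 of 9 and 6 of 10 were called. Both sets were chosen with earlier results of these data known, so the comparison is a description.

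Among the membrane and polarity inputs, 7 of 20 tested genes fell and 6 rose in H226, and 7 of 21 fell and 1 rose in ACHN. Over all tested genes, 40.7% were called in H226 and 17.8% in ACHN. FRMD6 (willin), a FERM-domain relative of merlin, fell to 146 ± 2.01 CPM in H226 with SWTX-143, against 200 ± 6.14 CPM with DMSO (log2 fold change −0.46 ± 0.04, adjusted p = 6.69e-13). In ACHN it fell to 67.5 ± 2.85 CPM with SWTX-143, against 101 ± 4.75 CPM with DMSO (−0.60 ± 0.05, adjusted p = 7.86e-14). The polarity scaffold DLG1, which overlaps its antisense gene DLG1-AS1, fell in H226 (−0.41 ± 0.04) and in ACHN (−0.27 ± 0.04), and PALS1, listed as MPP5, fell in ACHN (−0.35 ± 0.05) and less in H226 (−0.15 ± 0.05). The atypical cadherin FAT4 fell in ACHN (−0.53 ± 0.08) and was not called in H226 (−0.40 ± 0.23). CRB2 (0.41 ± 0.04), a Crumbs protein whose exons overlap DENND1A, and the polarity protein LLGL2 (0.38 ± 0.05) rose in H226. E-cadherin (CDH1), chosen after its values were seen, had the lowest log2 fold change of the 72 tested in H226 (−1.44 ± 0.25, adjusted p = 3.73e-06), at 1.40 ± 0.403 CPM with SWTX-143 and 3.78 ± 0.0713 CPM with DMSO. In ACHN, CDH1 had 155 ± 5.45 CPM with SWTX-143 and 155 ± 5.86 CPM with DMSO.

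Of the 5 LIM proteins related to AJUBA, WTIP fell in both lines, to 33.2 ± 2.15 CPM with SWTX-143 against 46.2 ± 1.75 CPM with DMSO in H226 (−0.48 ± 0.07) and to 16.4 ± 1.30 CPM against 24.9 ± 0.137 CPM in ACHN (−0.61 ± 0.09). TRIP6, another LIM protein that binds LATS kinases, rose in H226 (0.16 ± 0.05, adjusted p = 0.00405) and fell in ACHN (−0.18 ± 0.04, adjusted p = 0.000897). The other 3 (LIMD1, ZYX and LPP) were not called in either line.

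The upstream kinases and their partners held 3 falls and 2 rises among 16 tested genes in H226, and 1 fall and 2 rises among 16 in ACHN. Such counts are near or below the share of all tested genes called, 40.7% in H226 and 17.8% in ACHN. The Hippo kinases STK4 (MST1, −0.25 ± 0.05) and STK3 (MST2, −0.29 ± 0.07) fell in H226, while STK38L, a relative of the LATS kinases, rose (0.58 ± 0.07, adjusted p = 2.49e-09). The kinase MINK1 also rose there (0.18 ± 0.05), with exons that overlap CHRNE. In ACHN the kinases TNIK (0.35 ± 0.08) and TAOK3 (0.21 ± 0.07) rose and MAP4K3 fell (−0.19 ± 0.06).

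The STRIPAK phosphatase complex, which counters the Hippo kinases, held 4 falls and 2 rises among 16 tested genes in H226 and 2 falls among 16 in ACHN. Both counts are below the share of all tested genes called, 40.7% in H226 and 17.8% in ACHN. The STRIPAK scaffold STRN4 had the smallest p of the list in both lines and fell in H226 (−0.34 ± 0.05, adjusted p = 6.72e-07) and in ACHN (−0.20 ± 0.05, adjusted p = 0.00343). The catalytic subunits PPP2CB (−0.19 ± 0.05) and PPP2CA (−0.16 ± 0.04, overlapping MIR3661) fell in H226. STK24, a kinase of the complex, rose in H226 (0.27 ± 0.04), and it shares 7634 exonic bases with FARP1, which held 3162 pooled counts with SWTX-143 and 3386 with DMSO there. CTTNBP2NL fell in ACHN (−0.18 ± 0.06). Among 15 ubiquitin and tankyrase genes that control turnover of pathway proteins, 4 fell and 2 rose in H226, and 3 fell in ACHN. Here too the counts are near the share of all tested genes called. The ubiquitin ligase NEDD4L led in both lines (−0.44 ± 0.05 in H226 and −0.34 ± 0.04 in ACHN). CUL4A, whose exons overlap PCID2, fell in H226 (−0.22 ± 0.05) and in ACHN (−0.14 ± 0.04). The ligase WWP2 fell in H226 (−0.24 ± 0.05) and the tankyrase TNKS rose there (0.23 ± 0.05). DCAF1, whose exons overlap RBM15B, fell in H226 (−0.25 ± 0.06) and in ACHN (−0.17 ± 0.05).

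**Figure D5:**
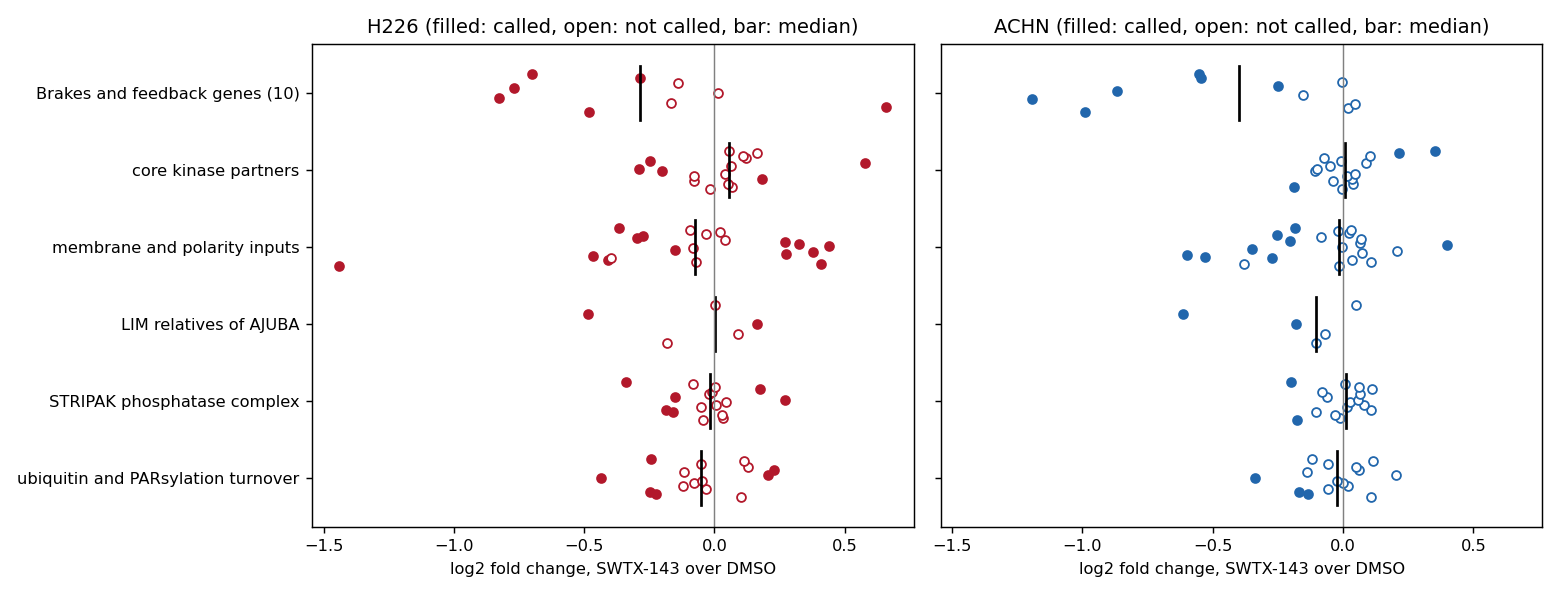
log2 fold change of SWTX-143 over DMSO (horizontal axis) of every tested gene in the list of brakes and feedback genes and in 5 lists of other pathway genes, H226 left and ACHN right. Filled points are called, open ones are not, and the black bar is the median of a list. The leftmost point in H226 is CDH1, and the median of the brakes and feedback genes is −0.29 in H226 and −0.40 in ACHN.

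Genes with the most similar pattern over the 12 libraries were found by root mean square distance of log2 CPM, after subtracting the mean of the DMSO libraries of the same line, among 10040 genes with at least 5 CPM in both lines. For AMOTL2 the closest were LINC01279 (distance 0.0952), the semaphorin SEMA7A (0.12), the syntaxin STX11 (0.150) and the semaphorin SEMA5A (0.180), against a median distance of 0.720 over all genes compared. For LATS2 they were the desmosomal plakophilin PKP2 (0.0938), RND3 (0.102), the aminophospholipid flippase ATP8B1 (0.105) and CCDC80 (0.106), against a median of 0.575. These genes were chosen by their response and are named as a description, and whether LINC01279 overlaps another gene was not checked. Their log2 fold changes ran from −0.57 (SEMA5A) to −1.05 (STX11) in H226 and from −0.75 (PKP2) to −1.23 (STX11) in ACHN.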

How the data were processed

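The authors deposited raw read counts per gene symbol, 1 table per line, and the values are whole numbers with unequal totals. Per the submitters' processing notes, hg19 (GRCh37) was the build and STAR 2.6.1d, cutadapt and FastQC were used. For the counting program, strand setting and annotation no source used here gives a name, so reads of overlapping genes could be assigned to either.

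Counts were filtered (filterByExpr), scaled by TMM and fitted in edgeR 4.0.16 (R 4.3.3) with robust quasi-likelihood F tests, per line or jointly over 12 libraries. SE is the fold change over the root of F. CPM used TMM factors of all 12 libraries. Transcript lengths and overlaps came from GENCODE 29 (GRCh38), and promoters from RefSeq, matched by symbol for all 10 genes. The transcript was the longest of those with the best APPRIS rank. DESeq2 1.42.0 was an alternative. Tests were tried on simulated counts. The 10 genes and the lists were chosen with earlier results of these data known. Every one of the 10 was named, with up to 4 called genes per pathway list and line with the smallest p, the 4 closest patterns, and CTGF, CYR61 and ANKRD1. CDH1 and PRKCI were added after their values were seen. Overlaps with other genes are given for named genes, except 1 that is not reported here.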

Additional observations from a re-analysis of the deposited data

Results flagged for a closer look

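The effect of SWTX-143 differed between H226 and ACHN, by the test of the difference itself, for 13 named genes. Values are the H226 effect minus the ACHN effect on the log2 scale, with SE and adjusted p from edgeR's joint fit. Over all 14664 tested genes, 15.6% were called by that test. Of the 73 other pathway genes tested, 4 were called lower and 6 higher, not above that share. Genes were named partly by their values, so the count of 13 is a description. SCRIB, a listed pathway gene outside the 13, was also called (−0.22 ± 0.07, adjusted p = 0.0143).

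Of the brakes and feedback genes, AJUBA differed by 0.50 ± 0.07 (adjusted p = 9.13e-09), AMOTL2 by 0.36 ± 0.06 (1.83e-06) and WWC1 by 0.26 ± 0.05 (0.000238), each falling in both lines and further in ACHN. Their differences were called under each of the 18 alternatives run.

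PRKCI, an atypical protein kinase C of the Par polarity complex that was chosen after its values were seen, rose in H226 (0.27 ± 0.04) and fell in ACHN (−0.21 ± 0.04), a difference of 0.47 ± 0.06 (1.60e-09). TRIP6 also went opposite ways, with a difference of 0.34 ± 0.06 (3.34e-05). CDH1 differed by −1.43 ± 0.23 (1.21e-06), from a level of 1.40 and 3.78 CPM in H226.

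STK38L differed by 0.49 ± 0.10 (0.000143), STK24 by 0.21 ± 0.06 (0.0138), MAP4K3 by 0.25 ± 0.08 (0.0316) and MPP5 by 0.19 ± 0.07 (0.0486). PPP2CB differed by −0.30 ± 0.07 (0.000765), ANKRD1 by −0.71 ± 0.20 (0.00729) and STK4 by −0.24 ± 0.08 (0.0238).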

How the results depend on the processing

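AMOTL2, LATS2, WWC2, AJUBA and WWC1 in both lines, and NF2 in ACHN, stayed called lower under each of 13 alternatives per line (other scalings, no filter, DESeq2, a replicate block, a joint fit and each library left out). All tested genes called in ACHN numbered 2401, and 1473 with DESeq2. Upper-quartile scaling changed the split of called genes to 2324 lower and 3283 higher in H226, and to 1028 lower and 1450 higher in ACHN, and library size alone to 2419 and 3110 and to 977 and 1537. The main split was 2919 and 2567 in H226 and 1264 and 1137 in ACHN, and the joint fit gave 994 and 1240 in ACHN. Signs turned for 4 values that were not called. With single libraries left out, LATS1 in H226 ran from −0.17 to 0.12, AMOT in ACHN from −0.0147 to 0.0428 and PTPN14 in ACHN from −0.0219 to 0.0166. PTPN14 in ACHN was also 0.0209 under upper-quartile scaling, 0.0260 with library size alone, 0.0013 without the filter and 0.0132 in the joint fit. AJUBA between lines under DMSO was −0.12 with library size alone. The cause was not tested. Whether the replicate numbers pair treated and control samples was left undecided. Deviations of same-numbered libraries correlated at −0.06, 0.18 and 0.11 in H226, and at −0.13, −0.16 and −0.06 in ACHN. For libraries with different numbers, the lowest and highest H226 values were −0.28 and 0.17. The ACHN values lay between −0.05 and 0.17. So few correlations, with 3 libraries per group, can neither show nor exclude pairing. With the replicate block those of the 10 genes called numbered 6 in H226, 6 in ACHN, 3 for the difference and 9 under DMSO, as without it, and all genes called numbered 5744 in H226 and 2146 in ACHN. Levels per kilobase depended on the transcript: the shortest annotated transcript moved 32 of 40 group means of single genes by more than their SD and the longest 2, and the shortest moved 22 of 24 family sums and shares and the longest 0. Low counts limit what can be said of NF2, AMOT and AMOTL1 in H226.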
